A study of Mus musculus with 6 samples.

Results

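The genes described here encode the EGF receptor family and its ligands. They were chosen by symbol, as 10 of the 18268 genes of the deposited table: the ligands Areg, Ereg, Hbegf, Egf, Tgfa, Btc and Nrg1, the receptors Egfr and Erbb2, and the receptor inhibitor Errfi1. All 10 symbols were found once each. Transcript levels were measured by RNA-seq in colorectal tissue of male C57BL/6 mice, 8 to 10 weeks of age, with dextran sulfate sodium (DSS) colitis, a model in which a polymer in the drinking water damages the intestinal surface. Every mouse drank 2.5% DSS over 7 days and was gavaged with a drug over 6 days. In 3 mice the drug was berberine (BBR, 100 mg/kg), a plant alkaloid, and in 3 mice it was sulfasalazine (SASP, 200 mg/kg), a standard drug for ulcerative colitis. Both groups had the colitis. Healthy or untreated colitis mice were not analysed here, and each difference is one between the drugs. The labels call all 6 samples colorectal, whereas the study speaks of rectal samples for its BBR sequencing and of colon samples for its SASP experiment, so a difference in site between the groups cannot be told apart from the drug. DSS colitis is an acute chemical injury, and whole tissue was sequenced, so the cells that made a transcript were not identified.

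EGF family ligands are made as membrane-bound precursors that are cut from the cell surface by metalloproteases, mainly Adam17, and then bind receptors on the same or nearby cells. Areg, Ereg, Hbegf, Egf, Tgfa and Btc bind Egfr, and Nrg1 binds the relatives Erbb3 and Erbb4. Erbb2 has no known ligand of its own and acts as a partner of the other receptors. Active receptors signal through Ras and ERK and through PI3K and Akt, and they induce their own brakes, among them Errfi1, a protein that binds and blocks the receptor kinase. In the gut this pathway is known for its part in epithelial growth and wound repair.

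BBR mouse 3 stood apart from its group over the table as a whole. Levels are in FPKM, a read count per length of transcript and per size of the library. Across the 12072 genes at 1 FPKM or more in 3 or more mice, its log2(FPKM + 1) values correlated at 0.953 and 0.949 with BBR mice 1 and 2, which correlated at 0.987 with each other. Such correlations run across genes and only describe the libraries. Colon epithelial markers were present in all mice, with Epcam at 833 to 1101 FPKM and the 10 markers summing to 8021 to 8891 FPKM under BBR and 8415 to 9635 FPKM under SASP. Members of this list differed in both directions, however. Krt18 (0.75) and the colon transcription factor Cdx2 (1.5, from 3.74 to 9.13 FPKM under SASP) were higher under BBR and Vil1 (-0.55) was lower (log2 differences, limma adjusted p = 0.0163, 0.0422 and 0.0327). Krt20 (-1.18) and Cldn7 (-0.45) did not pass. Both were lower in every BBR mouse than in every SASP mouse, as were 16.6% of all tested genes. Summed smooth muscle markers (8 genes) were 2863, 3006 and 6744 FPKM in BBR mice 1, 2 and 3 and 749 to 2296 FPKM under SASP. Enteric neuron and glia markers (8 genes) summed to 17.8, 42.8 and 60.7 FPKM under BBR and 11.5 to 26.7 FPKM under SASP. Leukocyte markers (6 genes) summed to 19.03 to 33.2 FPKM under BBR and 32.04 to 69.3 FPKM under SASP. Like those of smooth muscle, the sums of 3 other lists did not overlap between the groups. Fibroblast markers (8 genes) summed to 270.3, 361.6 and 269.6 FPKM under BBR and 121.4 to 213.2 FPKM under SASP. Of these 8 genes 4 were called higher in limma, where 3.82% of all tested genes were. Endothelial markers (5 genes) summed to 14.2, 24.5 and 12.2 FPKM under BBR and 6.45 to 9.52 FPKM under SASP. Macrophage markers (7 genes) summed to 54.3 to 58.7 FPKM under BBR and 114.1 to 145.5 FPKM under SASP, a gap that lay mostly in Cd14. Results are therefore given with and without BBR mouse 3.

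Of the 10 genes, 9 passed the filter on low values and were tested, and in limma 0 of them passed the adjusted p threshold of 0.05 between BBR and SASP. Of all tested genes 8.86% passed, 3.82% as higher and 5.04% as lower under BBR. Only Egfr had an unadjusted p under 0.05, against 31.8% of all tested genes. The median log2 fold change of the 9 genes was 0.34, with 6 higher and 3 lower under BBR, beside a median of 0.10 over all tested genes. The values turned mostly on 1 mouse. BBR mouse 3 had the highest value of all 6 mice for 5 of the 9 genes, and the lowest for 1, whereas it was the highest for 14.0% and the lowest for 34.0% of all tested genes. Those 5 were Areg, Ereg, Hbegf, Btc and Errfi1, and the gene at its lowest was Erbb2.

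**Figure D1:**
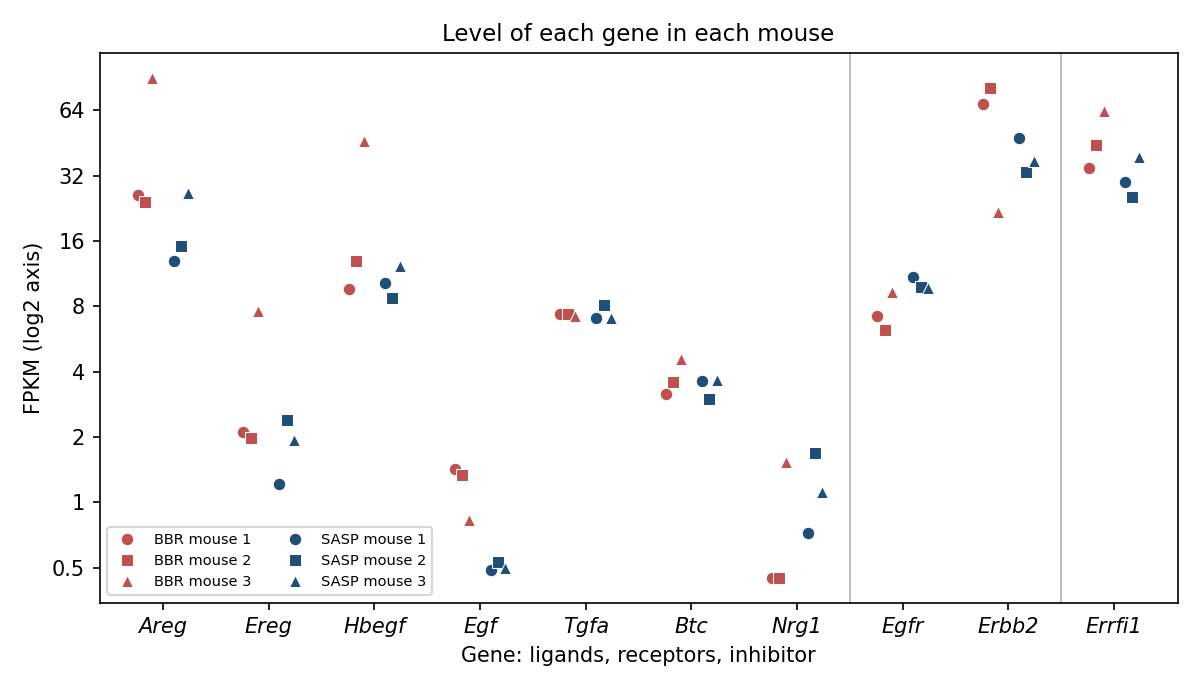
FPKM of the 10 genes (log2 axis), with 1 point for each mouse, BBR in red and SASP in blue, and the marker shape giving the mouse number within its group. BBR mouse 3 (red triangle) lies above the other 5 mice for Areg, Ereg, Hbegf, Btc and Errfi1 and below them for Erbb2.

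Areg (amphiregulin, NCBI Gene ID 11839) was the most abundant ligand. It was at 26.2, 24.2 and 90.3 FPKM in BBR mice 1, 2 and 3 and at 12.9, 15.2 and 26.6 FPKM in SASP mice 1, 2 and 3. The groups overlapped, since SASP mouse 3 lay just above BBR mice 1 and 2, while BBR mouse 3 was 3.59 times the mean of the other BBR mice. The means were 46.9 ± 37.6 and 18.2 ± 7.37 FPKM (SD, n = 3 each), a log2 difference of 1.11 (SE 0.52, limma adjusted p = 0.188). Without BBR mouse 3 it was 0.51 (SE 0.28, limma adjusted p = 0.198). All log2 differences and fold changes are BBR minus SASP on the log2(FPKM + 1) scale. In bulk tissue, fewer cells of a type and less RNA per cell cannot be told apart.

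Hbegf (heparin-binding EGF-like growth factor, 15200), which also binds Erbb4, showed the widest gap within the BBR group. Its levels were 9.58, 13.0 and 46.2 FPKM under BBR and 10.3, 8.76 and 12.3 FPKM under SASP. BBR mouse 3 was 4.10 times the mean of BBR mice 1 and 2. BBR mouse 1 lay within the SASP range and BBR mouse 2 just above it. The log2 difference of 0.75 (SE 0.52, limma adjusted p = 0.346) came down to 0.10 (SE 0.18, adjusted p = 0.674) without BBR mouse 3.

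Ereg (epiregulin, 13874), encoded beside Areg in the mouse genome, followed the same pattern at a lower level. It was at 2.10, 1.98 and 7.62 FPKM under BBR and 1.21, 2.40 and 1.93 FPKM under SASP, which is roughly 89 to 527 reads per mouse at the estimated depth. Here BBR mice 1 and 2 lay within the SASP range and BBR mouse 3 above it, at 3.74 times the mean of the other 2. The log2 fold change was 0.62 (SE 0.42, limma adjusted p = 0.338) with all mice and 0.12 (SE 0.21, adjusted p = 0.670) without BBR mouse 3.

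Errfi1 (74155), the feedback inhibitor, was at 34.7, 44.6 and 63.7 FPKM under BBR and 29.9, 25.5 and 39.1 FPKM under SASP. Its lead in BBR mouse 3 was smaller, at 1.61 times the mean of BBR mice 1 and 2, and BBR mouse 1 lay below SASP mouse 3. The means were 47.7 ± 14.7 and 31.5 ± 6.98 FPKM (SD, n = 3 each), and the log2 difference was 0.56 with a 95% interval of -0.017 to 1.14 (limma adjusted p = 0.166). Without BBR mouse 3 the change was 0.33 (adjusted p = 0.219).

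The promoters of Areg and Errfi1 are shown because these genes, a ligand and the inhibitor, both peaked in BBR mouse 3 and each had a window with both motifs marked below. Btc also peaked in BBR mouse 3, but its window held neither motif. Ereg and Hbegf peaked there too and had no window. A link between the motifs and the levels was not tested. Both are RefSeq sequences from GRCm38.p6, a later build than the mm9 named for these data, and no coordinate was carried over between builds. Of the 10 genes, 7 had at least 1 window in the promoter table. The 250 bases before the start of each gene are printed, on the plus strand in both cases, from chr5:91139349-91139598 for Areg and chr4:150854820-150855069 for the Errfi1 start that held the motif. Capitals mark the cyclic AMP response element TGACGTCA, the site bound by CREB and related factors, and the TATA box letters TATAAA.
Areg: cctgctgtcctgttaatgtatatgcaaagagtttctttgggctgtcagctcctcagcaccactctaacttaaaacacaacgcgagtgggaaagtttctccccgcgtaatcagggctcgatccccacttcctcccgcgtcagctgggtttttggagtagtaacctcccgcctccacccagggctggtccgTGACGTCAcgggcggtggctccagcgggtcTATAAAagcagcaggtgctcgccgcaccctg
Errfi1: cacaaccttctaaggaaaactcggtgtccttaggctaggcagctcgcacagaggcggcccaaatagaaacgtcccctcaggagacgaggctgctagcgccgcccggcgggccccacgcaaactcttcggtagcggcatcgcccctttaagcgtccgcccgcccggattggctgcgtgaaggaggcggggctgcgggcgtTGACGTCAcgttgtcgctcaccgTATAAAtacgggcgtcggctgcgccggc

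TGACGTCA began 61 bases before the Areg start and 51 bases before the Errfi1 start, and TATAAA began 31 and 28 bases before them. Searched on both strands in windows of 250 bases before to 50 bases after the start, TGACGTCA was in 1.79% of the 32851 promoter windows, TATAAA in 13.6% and both in 0.17%. The windows found for Egf, Tgfa, Btc, Egfr and Erbb2, and the other Errfi1 window, held neither motif. The AP-1 letters TGANTCA, which cannot match within TGACGTCA, were in 7.81% of all windows and in 0 of the 9 windows of these genes. A match describes letters in the reference and not binding in these mice.

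Btc (betacellulin, 12223) and Tgfa (transforming growth factor alpha, 21802) were the steady ligands. Tgfa was at 7.39, 7.41 and 7.20 FPKM under BBR and 7.10, 8.15 and 7.11 FPKM under SASP, so that all 6 values lay close together. Its log2 fold change was -0.018, with a 95% interval of -0.28 to 0.25 (limma adjusted p = 0.921). Btc was at 3.17, 3.57 and 4.59 FPKM under BBR and 3.62, 2.98 and 3.67 FPKM under SASP, a change of 0.10 with an interval of -0.27 to 0.48 (adjusted p = 0.672). Its direction turned with quantile normalization (-0.011) and without BBR mouse 3 (-0.015).

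Egf (epidermal growth factor, 13645) was scarce but was the 1 ligand with parted groups. It was at 1.42, 1.33 and 0.83 FPKM under BBR and 0.49, 0.53 and 0.50 FPKM under SASP, or roughly 66 to 112 reads and 40 to 46 reads per mouse at the estimated depth. No BBR value was as low as any SASP value, which held for 13.1% of the genes below the filter that were above 0 in some mouse. The means were 1.19 ± 0.318 and 0.507 ± 0.0208 FPKM (SD, n = 3 each), a ratio of 2.35. Egf reached 1 FPKM in 2 mice and so was not tested with the others. When the filter was dropped and 18260 genes were tested, its log2 fold change was 0.53 (SE 0.12, limma adjusted p = 0.0724), where 3.33% of genes passed the threshold. Unlike Areg and Hbegf, Egf was lowest in BBR mouse 3 among the BBR mice.

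Nrg1 (neuregulin 1, 211323), the ligand of Erbb3 and Erbb4, was at 0.45, 0.45 and 1.54 FPKM under BBR and 0.72, 1.68 and 1.12 FPKM under SASP. BBR mice 1 and 2 were the lowest of the 6, at about 40 reads each, and BBR mouse 3 lay within the SASP range. It passed the filter through 1 BBR and 2 SASP mice. The log2 fold change was -0.29 (SE 0.28, limma adjusted p = 0.488), and without BBR mouse 3 it fell below the filter and was not tested.

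Because FPKM is a level per length of transcript, the ligands can be ranked against each other. Areg was above Hbegf, Hbegf above Tgfa, Tgfa above Btc and Ereg above Nrg1 in 6 of 6 mice, with mean levels of 32.6, 16.7, 7.39, 3.60, 2.87 and 0.993 FPKM from Areg to Nrg1. Neighbours that changed places were Btc and Ereg, in order in 5 of 6 mice, and Nrg1 and Egf, in order in 4 of 6. The 7 ligands summed to 50.3, 51.8 and 158.3 FPKM under BBR and to 36.3, 39.7 and 53.3 FPKM under SASP. BBR mouse 3 was thus far above every other mouse, while BBR mice 1 and 2 lay within the SASP range. Areg made up 52.1%, 46.6% and 57.1% of this sum in BBR and 35.5%, 38.2% and 50% in SASP mice. The share of Tgfa was 4.55% in BBR mouse 3 and 13.4% to 20.6% in the other mice, at a Tgfa level that hardly moved.

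**Figure D2:**
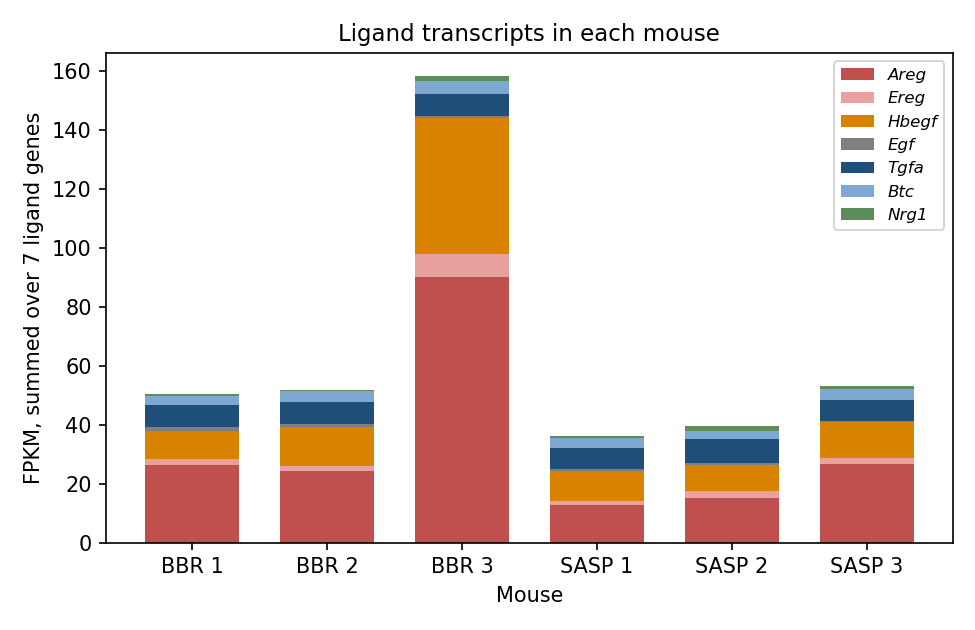
FPKM of the 7 ligand genes stacked for each mouse, with the bar height giving their sum on a linear axis from 0. BBR mouse 3 reaches 158.3 FPKM through Areg and Hbegf, and the other 5 mice lie between 36.3 and 53.3 FPKM.

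The receptors lay on opposite sides of the SASP mice in BBR mice 1 and 2. Egfr (13649), the receptor that gives the family its name, was at 7.19, 6.20 and 9.31 FPKM under BBR and 10.9, 9.78 and 9.70 FPKM under SASP. All 3 BBR mice were below all 3 SASP mice, though BBR mouse 3 came close. Groups parted in 1 of the 9 tested genes, with BBR below, against 37.9% of all tested genes (21.3% with BBR above and 16.6% with BBR below). The means were 7.57 ± 1.59 and 10.1 ± 0.671 FPKM (SD, n = 3 each), a log2 difference of -0.39 (SE 0.16, limma adjusted p = 0.141).

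Erbb2 (13866), the ligand-less partner, was at 68.2, 81.2 and 21.7 FPKM under BBR and 47.5, 33.4 and 37.4 FPKM under SASP. BBR mice 1 and 2 were above every SASP mouse and BBR mouse 3 was below every SASP mouse, at 0.29 times the mean of the other BBR mice. The log2 difference of 0.34 (SE 0.46, limma adjusted p = 0.637) was therefore smaller than the spread between BBR mice. The level of Erbb2 was 9.49, 13.1 and 2.33 times that of Egfr in BBR mice 1, 2 and 3 and 3.41 to 4.36 times in SASP mice.

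Without BBR mouse 3, both receptors passed the threshold. Egfr then fell by 0.53 on the log2 scale (SE 0.11, limma adjusted p = 0.0157), and Erbb2 rose by 0.91 (SE 0.16, limma adjusted p = 0.0108). These were 2 of the 8 members still tested, where 33.8% of all tested genes passed in the same fit, and the 5 ligands tested and Errfi1 did not pass. Erbb3, the kinase-poor relative that pairs with Erbb2, is no member but had the shape of Erbb2, at 121, 127 and 76.3 FPKM under BBR and 99.3, 84.3 and 90.5 FPKM under SASP. It changed by 0.21 (limma adjusted p = 0.492) with all mice and by 0.44 (adjusted p = 0.0175) without BBR mouse 3. Erbb3 was above Erbb2 and Erbb2 above Egfr in 6 of 6 mice, and Erbb4 reached at most 0.01 FPKM in any mouse. Nrg4, a ligand of Erbb4, stayed below the filter at 1.07, 0.92 and 0.79 FPKM under BBR and 0.46, 0.52 and 0.62 FPKM under SASP. Its groups parted as those of Egf did, which held for 13.1% of genes below the filter and above 0 in some mouse.

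**Figure D3:**
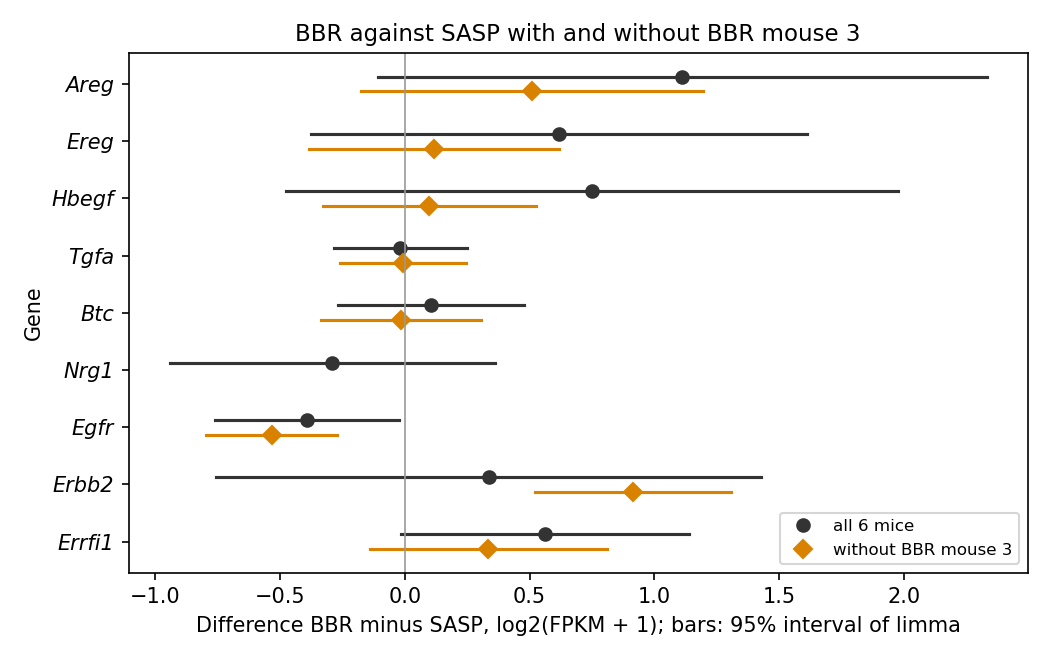
Difference between BBR and SASP on the log2(FPKM + 1) scale for the 9 tested genes, with the 95% interval of limma as bars. The intervals are not adjusted for the number of genes tested. With all 6 mice (black) those of Areg, Ereg, Hbegf and Erbb2 are wide. That of Egfr lies below 0, though Egfr did not pass the threshold (limma adjusted p = 0.141). Without BBR mouse 3 (orange) Egfr (-0.53) and Erbb2 (0.91) lie clear of 0, and Nrg1 was not tested.

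The genes that shed and restrain this family were read from lists with known roles. These lists were chosen with earlier results of these data known, so their counts only describe them. Over 63 tested genes of 6 lists, 5 were higher and 2 lower under BBR at the threshold, or 7 against the 8.86% background, and the median log2 fold change was 0.16. In the list of ligand shedding, 3 of 8 tested genes rose and 0 fell, where 3.82% and 5.04% of all tested genes did. Rhbdf1 (iRhom1), which escorts Adam17 to the cell surface, was at 8.56, 9.59 and 6.27 FPKM under BBR and 2.62, 4.02 and 3.69 FPKM under SASP (log2 fold change 1.04, SE 0.20, limma adjusted p = 0.0279). Frmd8, which stabilises iRhoms, was at 28.9, 28.2 and 17.8 FPKM under BBR and 13.4, 14.1 and 9.98 FPKM under SASP and rose by 0.93 (limma adjusted p = 0.0458). Adam15, a related metalloprotease, was at 51.3, 56.4 and 42.1 FPKM under BBR and 33.7, 35.4 and 33.9 FPKM under SASP and rose by 0.52 (adjusted p = 0.0492). Adam17 itself was at 11.6, 12.03 and 10.1 FPKM under BBR and 12.8, 12.2 and 12.7 FPKM under SASP, a change of -0.15 that did not pass (adjusted p = 0.380). Rhbdf2, which serves Adam17 in immune cells, was at 4.82 ± 0.926 and 4.50 ± 0.260 FPKM (SD, n = 3 each).

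Among genes that restrain the receptors, 2 of 18 tested rose and 0 fell, beside 3.82% and 5.04% of all tested genes. Cbl, a ubiquitin ligase that sends Egfr to degradation, was at 18.0, 15.6 and 10.2 FPKM under BBR and 7.46, 7.76 and 7.13 FPKM under SASP (log2 fold change 0.85, SE 0.20, limma adjusted p = 0.0462). Dusp4, a phosphatase that inactivates ERK, was at 2.5, 2.72 and 2.02 FPKM under BBR and 0.65, 0.95 and 1.29 FPKM under SASP and rose by 0.81 (SE 0.17, limma adjusted p = 0.0385). For Rhbdf1, Frmd8, Adam15, Cbl and Dusp4 the lowest BBR mouse was above the highest SASP mouse, as in 21.3% of all tested genes. They were picked by small p in the same data, so the parted groups add no support. Each fell short of the threshold when any mouse but BBR mouse 3 was omitted. Dusp6, another ERK phosphatase, was spread within both groups, at 25.8, 37.6 and 97.6 FPKM under BBR and 90.2, 45.6 and 97.9 FPKM under SASP. Spry4, a Sprouty inhibitor of the Ras pathway, peaked in BBR mouse 3, at 1.30, 2.30 and 7.15 FPKM under BBR and 1.48, 2.11 and 2.68 FPKM under SASP. Neither passed the test (limma adjusted p = 0.376 and 0.584). The summed smooth muscle, fibroblast, endothelial and macrophage markers parted the groups along with these genes, the macrophage sum mostly through Cd14. The part of the fibroblast, endothelial and macrophage markers in the calls was not tested. Without BBR mouse 3 the receptor feedback list held 9 genes called higher and 2 called lower, and the shedding list 3 and 1, beside 22.3% and 11.5% of all tested genes.

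Among 11 tested genes known to respond to ERK, 0 rose and 2 fell, beside the same 3.82% and 5.04% of all tested genes. Ccnd1 (cyclin D1, which drives entry into the cell cycle) was at 11.1, 12.2 and 8.65 FPKM under BBR and 34.9, 41.3 and 41.7 FPKM under SASP, a log2 difference of -1.80 (SE 0.15, limma adjusted p = 0.00245), and kept its call without any 1 mouse, though not with a smooth muscle score in the model, where it was -1.77 (SE 0.24, adjusted p = 0.0711). Myc, a growth-promoting transcription factor, was at 3.56 ± 0.249 and 7.37 ± 1.24 FPKM (SD, n = 3 each), a change of -0.87 (adjusted p = 0.0231), and lost its call without any mouse other than BBR mouse 3. BBR mouse 3 had the highest value of the 6 mice for 6 of these 11 genes, beside 14.0% of all tested genes. Of those 6, named after their values were seen, Phlda1 was at 4.18, 5 and 30.6 FPKM under BBR and 3.47 to 9.58 FPKM under SASP, and Plaur at 2.40, 3.28 and 17.2 FPKM under BBR and 4.71 to 7.27 FPKM under SASP. The Ras-ERK cascade (17 tested), the PI3K-Akt branch (8 tested) and the other ligands and receptors (1 tested of 6) held 0 genes past the threshold in limma, with 5, 1 and 0 at an unadjusted p under 0.05 (31.8% of all tested genes) and medians of 0.086, 0.10 and 0.21.

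**Figure D4:**
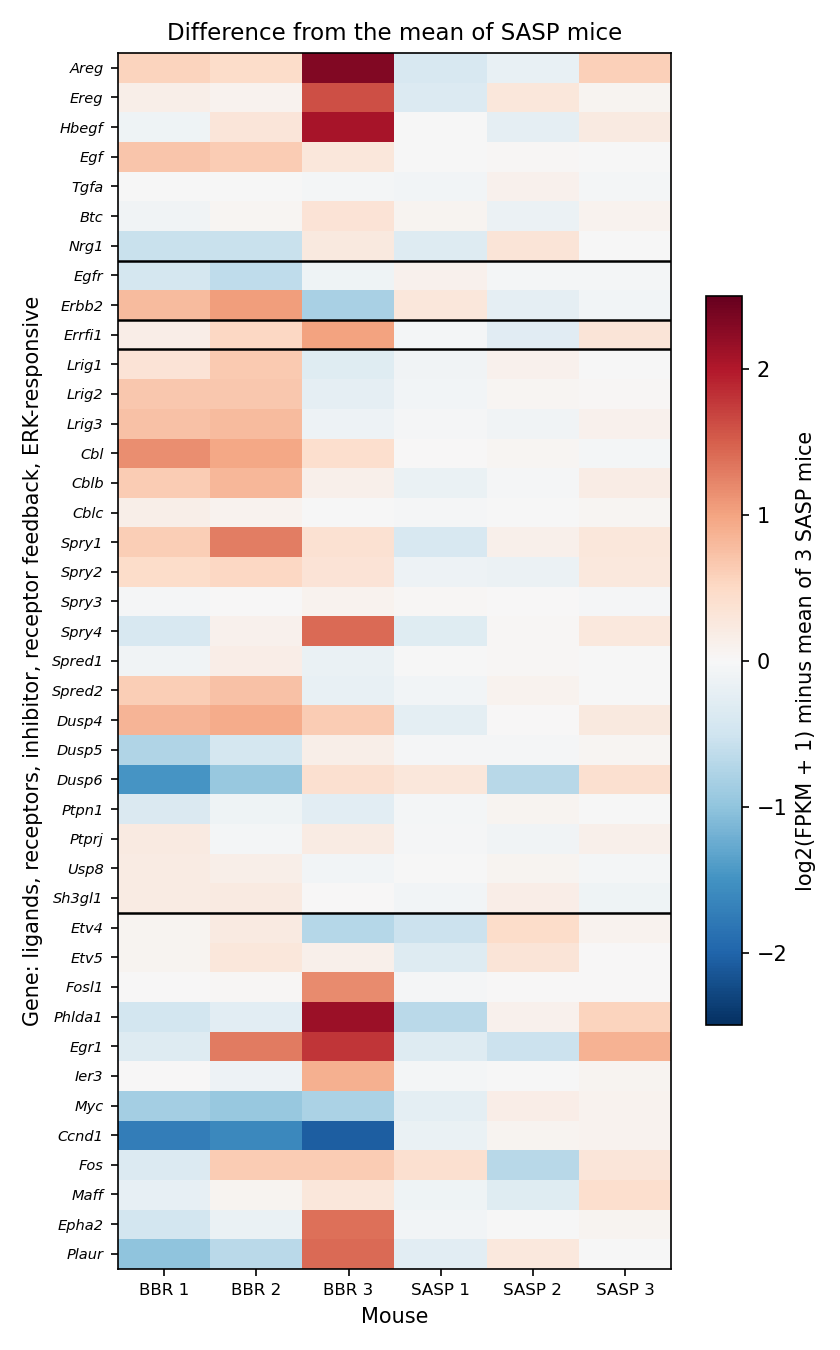
Colour gives log2(FPKM + 1) in each mouse minus the mean of the 3 SASP mice, for the 10 genes, then the receptor feedback and the ERK-responsive lists, with black lines between the groups of genes. BBR mouse 3 differs from BBR mice 1 and 2 in Areg, Ereg, Hbegf, Erbb2, Phlda1 and Plaur, and Ccnd1 is low in all 3 BBR mice.

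The markers of BBR mouse 3 were read beside these results. Of 9 squamous epithelial markers, a cell type of the anal canal, 2 passed the filter, Sprr1a and Sfn, and the list summed to 55.3, 57.7 and 204.5 FPKM under BBR and 90.9 to 122.6 FPKM under SASP. Nearly all of the 204.5 FPKM was Sfn (172 FPKM) and Sprr1a (29.6 FPKM), while the defining markers Krt5, Krt14 and Trp63 were at most at 0.25, 1.73 and 0.06 FPKM in any mouse. Smooth muscle markers were at their highest in BBR mouse 3 for 8 of 8 tested genes, and neuron and glia markers for 6 of 6. Neutrophil markers (6 genes) summed to 234, 192 and 567 FPKM under BBR and 357 to 536 FPKM under SASP. Nearly all of this was Ly6g, at 232, 190 and 552 FPKM under BBR and 329 to 505 FPKM under SASP, so the sum describes little beyond that gene. BBR mouse 3 was the highest for 2 of 5 tested neutrophil genes. S100a8 was at 0, 0 and 6.19 FPKM under BBR and 18.5 to 23.1 FPKM under SASP (limma adjusted p = 0.0365). S100a9 was at 0.11, 0.11 and 5.25 FPKM under BBR and 6.91 to 10.7 FPKM under SASP (limma adjusted p = 0.0746). In BBR mouse 3 both were thus below every SASP mouse, whereas Ly6g was above. The part of the squamous, neuron, glia and neutrophil markers in the results was not tested. With a smooth muscle score in the model, which widened the standard errors of the receptors, the values moved in both directions and 0 members passed. Areg was then at -0.011, Ereg at -0.42 and Hbegf at -0.16 (limma adjusted p = 0.994, 0.591 and 0.914). Erbb2 was at 1.41, Nrg1 at -0.99 and Egfr at -0.49 (adjusted p = 0.239, 0.186 and 0.356), all farther from 0 than without the score, and Errfi1 was at 0.24 (adjusted p = 0.741). Summed smooth muscle markers were higher in every BBR mouse than in every SASP mouse, and highest in BBR mouse 3. With 6 mice the score therefore cannot be told apart from the drug or from this mouse, and these values do not decide its part.

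The genes most like a member over the 6 mice were named by Pearson's r of log2(FPKM + 1), as a description. For each member the 3 highest of all tested genes were taken, so high r values were favoured by the choice itself. For Areg they were Spdef, a goblet cell transcription factor, S100a13 and Setmar (r = 0.990, 0.984 and 0.982), and over the 5 mice without BBR mouse 3 their r was 0.947, 0.950 and 0.928. Spdef was at 14.2, 13.3 and 19.6 FPKM under BBR and 11.97, 12.5 and 14.7 FPKM under SASP. For Errfi1 they were Hmgcs1, an enzyme of cholesterol synthesis, Arhgef6 and Zfand2a (r = 0.992, 0.977 and 0.973). For Egfr, Ceacam1 and Met were among them (r = 0.996 and 0.995), and the r of Met, another growth factor receptor of epithelia, was 0.996 without BBR mouse 3. Met was at 10.96, 8.90 and 17.0 FPKM under BBR and 20.1, 17.8 and 18.4 FPKM under SASP. All of these values come from the same 6 libraries and 2 groups.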

How the data were processed

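The deposited table holds FPKM values that the authors calculated for each gene and mouse with RSEM (1.2.12) after alignment with Bowtie2 (2.2.5), versions and the build mm9 being those of the submitters' processing notes. The annotation is not given in the sources used here. RSEM divides reads shared by similar genes. Depth, estimated from genes under 1500 bases seen in 1 mouse only with the median such value taken as 1 read, was 16400000 to 18200000 reads per mouse. Read numbers per gene, from the longest GENCODE transcript, are approximate.

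FPKM are not counts, so log2(FPKM + 1), which understates changes of low genes, was compared in limma 3.58.1 (R 4.3.3) with a mean-variance trend, two-sided, over the 12072 genes that reached 1 FPKM in 3 or more mice. Benjamini-Hochberg adjusted p-values under 0.05 were called. With 3 mice per group, permuting the labels can reach no two-sided p under 0.1, so no permutation test was run. Groups follow the treatment label, and mouse numbers follow the order of deposit.

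The members, pathway lists and marker lists were chosen with earlier results of these data known, and no list was tested as a set. All 10 members were named, with up to 3 genes of the smallest p past the threshold from each pathway list and the 3 genes most like Areg, Errfi1 and Egfr. Of these, 1 gene is not reported here. Erbb3, Erbb4, Nrg4, Adam17, Rhbdf2, Dusp6, Spry4, Phlda1, Plaur, S100a8, S100a9 and Ly6g were named after their values were seen. Alternatives were other scalings and filters, a pseudocount of 0.1, no trend, array weights, marker scores as covariates and omission of each mouse.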

Additional observations from a re-analysis of the deposited data

How the results depend on the processing

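No paired analysis was possible because the labels give the groups no shared replicate numbers. The count of 0 members past the threshold held in 13 of 15 alternatives in limma, with 0 to 2 members at an unadjusted p under 0.05. It became 3 with array weights (Egfr, Erbb2 and Nrg1), which gave BBR mouse 3 a weight of 0.129 and BBR mouse 1 a weight of 5.32, and ranged from 0 to 2 when single mice were left out, the 2 being Egfr and Erbb2 without BBR mouse 3. The 7 pathway genes became 2 with no filter, 38 with array weights and 0 with the smooth muscle covariate (13 at an unadjusted p under 0.05), where their log2 differences stayed large (Rhbdf1 0.99, Frmd8 1.28, Adam15 0.64, Dusp4 0.74, Cbl 1.17, Ccnd1 -1.77, Myc -1.14) and their standard errors grew, and 1 to 25 without single mice, highest without BBR mouse 3 and 1 without any other mouse. Over all genes the 1069 calls became 1737 with quantile normalization, 1713 with median-ratio scaling, 608 with no filter, 19 with the smooth muscle covariate, 3837 at an unadjusted p of at most 0.05 and 7126 with array weights, where 4636 were higher, against 461 of 1069. With the epithelial covariate 839 of 1481 were higher. Without single mice the count ranged from 51 to 4018. Directions turned with the smooth muscle covariate for Areg (-0.011), Ereg (-0.42) and Hbegf (-0.16), and with array weights for Hbegf (-0.17), Tgfa (0.028), Btc (-0.11) and Errfi1 (-0.0034). Btc also turned with quantile normalization (-0.011). Without single mice Btc ranged from -0.015 (BBR mouse 3 left out) to 0.20, Tgfa from -0.048 to 0.040 (SASP mouse 2 left out) and Erbb2 from -0.015 (BBR mouse 2 left out) to 0.91. None of the turned values was past the threshold, and the cause was not tested. Smooth muscle markers summed higher in every BBR mouse than in every SASP mouse, so the smooth muscle covariate cannot be told apart from the drug. The untested log2 difference of Egf was above 0 in all alternatives run, at 0.38 to 1.06. With 3 mice a group and 1 that stood apart, differences such as the 95% interval of Areg, -0.11 to 2.33, were not settled.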
